A study of Schizosaccharomyces pombe with 6 samples.

Results

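Peaks of Arp5-3HA that met no Hap2-GFP peak were collected in fission yeast (Schizosaccharomyces pombe). Peaks of the 4 deposited lists on chromosomes I to III were joined into one region from an overlap of 1 bp upward, and the 422 merged regions with peaks of both Arp5-3HA lists and of neither Hap2-GFP list were kept. These Arp5-only regions were 5.62% of the 7509 merged regions and 21.3% of the 1978 regions with peaks of both Arp5-3HA lists. The members were therefore selected on the peak calls themselves, so the presence of Arp5-3HA peaks and the absence of Hap2-GFP peaks are not findings here. The labels give 1 strain for every sample, Hap2-GFP Arp5-3HA, in which both proteins are tagged, grown in rich medium (YES). Arp5-3HA was immunoprecipitated with anti-HA and Hap2-GFP with anti-GFP, in 2 replicates each. The labels name no untagged strain among these samples, and 2 Input samples were not analysed here.

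Arp5 is an actin-related subunit of the Ino80 chromatin remodeling complex (Ino80C), which uses ATP to slide nucleosomes and to exchange or space them. Arp5 is part of the module that couples the ATPase to movement of the nucleosome, as worked out mainly in budding yeast. Hap2 is a small auxiliary subunit of the fission yeast complex. ChIP-seq of a subunit gives peaks where its crosslinked DNA was recovered over background, so a region with peaks of 1 subunit only is a statement about which peaks were called.

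The sequence under the members is shown first, since their base composition is one of the features that set them apart from the genes around them. The 6 highest-ranked Arp5-only regions whose printed bases lie within a single coding exon of the gene that holds the centre are given on the coding strand, 5′ to 3′, from the ASM294v3 reference. Of regions longer than 300 bp the central 300 bases are shown. For the first 2 genes, as many bases just upstream of the region in the same coding exon, which hold no peak of any list, follow for contrast. Capitals mark codons in the gene's reading frame that begin with G or C at both of their first 2 positions, which are the codons of alanine, glycine, proline and the CGN codons of arginine.
SPAC57A7.05 Arp5-only region (chrI:1536621-1536920, - strand): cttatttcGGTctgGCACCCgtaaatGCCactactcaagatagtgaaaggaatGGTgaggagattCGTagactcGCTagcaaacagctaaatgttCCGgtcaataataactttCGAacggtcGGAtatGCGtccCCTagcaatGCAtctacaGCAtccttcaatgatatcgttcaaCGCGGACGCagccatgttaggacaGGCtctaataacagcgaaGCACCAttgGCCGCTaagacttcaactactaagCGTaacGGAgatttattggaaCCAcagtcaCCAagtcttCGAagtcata
SPAC57A7.05 bases just upstream (chrI:1536981-1537280, - strand): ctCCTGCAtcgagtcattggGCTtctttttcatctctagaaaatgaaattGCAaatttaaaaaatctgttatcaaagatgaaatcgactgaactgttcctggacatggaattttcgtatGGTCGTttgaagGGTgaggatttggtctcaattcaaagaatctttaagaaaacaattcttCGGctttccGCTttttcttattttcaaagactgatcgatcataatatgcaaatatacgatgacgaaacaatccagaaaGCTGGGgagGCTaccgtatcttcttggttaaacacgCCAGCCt
nst1 Arp5-only region (chrI:4420256-4420555, - strand): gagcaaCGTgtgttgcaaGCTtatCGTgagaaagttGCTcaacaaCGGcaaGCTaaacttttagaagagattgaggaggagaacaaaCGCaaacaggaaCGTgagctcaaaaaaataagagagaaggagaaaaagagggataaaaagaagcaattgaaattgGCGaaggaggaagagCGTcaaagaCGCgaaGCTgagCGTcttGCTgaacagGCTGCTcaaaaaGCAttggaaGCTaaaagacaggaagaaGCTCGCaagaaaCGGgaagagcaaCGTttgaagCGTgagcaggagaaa
nst1 bases just upstream (chrI:4420601-4420900, - strand): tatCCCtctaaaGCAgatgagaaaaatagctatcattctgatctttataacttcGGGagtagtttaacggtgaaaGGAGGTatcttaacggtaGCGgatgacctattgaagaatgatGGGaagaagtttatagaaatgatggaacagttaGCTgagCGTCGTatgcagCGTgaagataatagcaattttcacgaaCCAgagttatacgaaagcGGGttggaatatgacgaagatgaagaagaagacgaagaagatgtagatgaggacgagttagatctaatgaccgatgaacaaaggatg
prp1 Arp5-only region (chrII:2644281-2644560, + strand): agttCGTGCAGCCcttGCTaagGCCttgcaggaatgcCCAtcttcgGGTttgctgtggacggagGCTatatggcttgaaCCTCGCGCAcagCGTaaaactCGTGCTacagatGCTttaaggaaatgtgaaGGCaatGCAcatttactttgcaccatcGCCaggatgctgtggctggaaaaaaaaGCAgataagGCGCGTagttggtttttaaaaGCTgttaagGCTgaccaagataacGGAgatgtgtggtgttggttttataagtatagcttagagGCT
pmd1 Arp5-only region (chrIII:1636956-1637255, + strand): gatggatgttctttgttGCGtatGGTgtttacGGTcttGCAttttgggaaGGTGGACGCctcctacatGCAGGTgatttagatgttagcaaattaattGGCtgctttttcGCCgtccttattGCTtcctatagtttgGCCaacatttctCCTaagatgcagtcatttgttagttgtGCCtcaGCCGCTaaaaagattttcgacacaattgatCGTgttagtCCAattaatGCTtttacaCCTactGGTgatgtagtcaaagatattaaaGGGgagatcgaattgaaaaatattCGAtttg
mrpl35 Arp5-only region (chrII:1719641-1719940, - strand): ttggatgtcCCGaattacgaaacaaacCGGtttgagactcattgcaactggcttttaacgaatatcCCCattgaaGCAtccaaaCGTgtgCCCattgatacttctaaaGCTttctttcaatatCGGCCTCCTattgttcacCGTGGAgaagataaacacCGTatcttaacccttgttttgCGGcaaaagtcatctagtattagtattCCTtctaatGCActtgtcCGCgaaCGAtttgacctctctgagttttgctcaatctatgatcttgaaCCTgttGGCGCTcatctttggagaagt
bgl2 Arp5-only region (chrI:4135251-4135550, - strand): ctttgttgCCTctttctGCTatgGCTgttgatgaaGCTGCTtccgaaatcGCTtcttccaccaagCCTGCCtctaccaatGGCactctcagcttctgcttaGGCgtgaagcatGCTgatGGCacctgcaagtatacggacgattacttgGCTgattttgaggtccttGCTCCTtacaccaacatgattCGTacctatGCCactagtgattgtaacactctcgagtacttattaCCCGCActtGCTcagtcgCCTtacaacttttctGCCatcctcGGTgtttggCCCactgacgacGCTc

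In SPAC57A7.05, a gene for an uncharacterized protein, 27 of the 99 whole codons shown from the region are in capitals (27.3%), against 14 of 99 just upstream (14.1%). The GC content of these stretches is 46.0% and 37.7%. In nst1 the same counts are 23 of 100 codons in the region and 13 of 100 just upstream, with GC contents of 44.7% and 39.7%. The regions in prp1 and bgl2 hold 25 of 93 and 25 of 99 such codons, and those in pmd1 and mrpl35 hold 24 of 99 and 21 of 100. Over full regions and the rest of their genes the shares were 25.2% and 20% in SPAC57A7.05 and 22.3% and 17.3% in nst1. In both genes the contrast with the rest of the gene was thus smaller than that with the bases just upstream. The shares were 26.9% and 21.9% in prp1 and 24.8% and 21.5% in bgl2. They were 23.2% and 21.0% in pmd1 and 19.0% and 17.5% in mrpl35. These stretches were picked by peak rank and not by composition.

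The lists on which the rule rests were of like size. Arp5-3HA replicates 1 and 2 hold 4206 and 4277 peaks on chromosomes I to III, and Hap2-GFP replicates 1 and 2 hold 3758 and 4259. The number of members rests on the overlap of these lists. It was 1609 without Arp5-3HA replicate 1, 1718 without Arp5-3HA replicate 2, 655 without Hap2-GFP replicate 1 and 725 without Hap2-GFP replicate 2. Read counts are not part of the lists, so the depth of each sample is unknown, and each peak has a score by the authors whose scale is not stated, used here only to rank the peaks of a list. Separate cultures are not named for the replicates, whose spread may thus be technical only. A two-sided exact permutation test over 2 lists of each protein has a smallest possible p of 0.333, so no test was made, and values of single lists stand in for the replicate error.

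Arp5-only regions were low in rank. Their length ran from 170 to 1020 bp with a median of 315 bp, against medians of 420 bp for regions with both Arp5-3HA lists and 1 Hap2-GFP list and 775 bp for regions in all 4 lists. Merging peaks of more lists lengthens a region by construction, and Hap2-only regions, which are also built from 2 lists, had a median of 340 bp. The rank of a region was taken as the lower of the percentiles by score of its best peak in the 2 Arp5-3HA lists. It had a median of 27.3 in Arp5-only regions, 39.4 in regions with 1 Hap2-GFP list and 71.3 in regions of all 4 lists. Taking the lower of 2 percentiles that differ lowers the rank by construction, and the members' medians within replicates 1 and 2 were 44 and 39.4. A longer region can also hold several peaks of a list, of which the best counts. How much of the difference in rank goes with this was not tested. Of the 422 members, 57 lay above the 50th percentile in both lists and 3 above the 75th, against 470 of the 1038 regions of all 4 lists above the 75th. A Hap2-GFP peak below the authors' threshold would not be seen in these lists, and whether members are regions where such a peak was missed was not tested.

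The 2 Arp5-3HA lists placed the members loosely. The median percentile of the members' best peaks was 44.0 in replicate 1 and 39.4 in replicate 2, and the percentile was higher in replicate 1 for 220 members and higher in replicate 2 for 202. Within a member the percentiles differed by a median of 22.6 points and by over 30 points in 168 members. The summits of the best peaks lay a median of 100 bp apart, with 224 members at 100 bp or less. The peaks themselves were a median of 210 bp long in each list and shared a median of 145 bp, with a lowest shared stretch of 10 bp. A single peak of each list made up 395 of the 422 members.

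**Figure D1:**
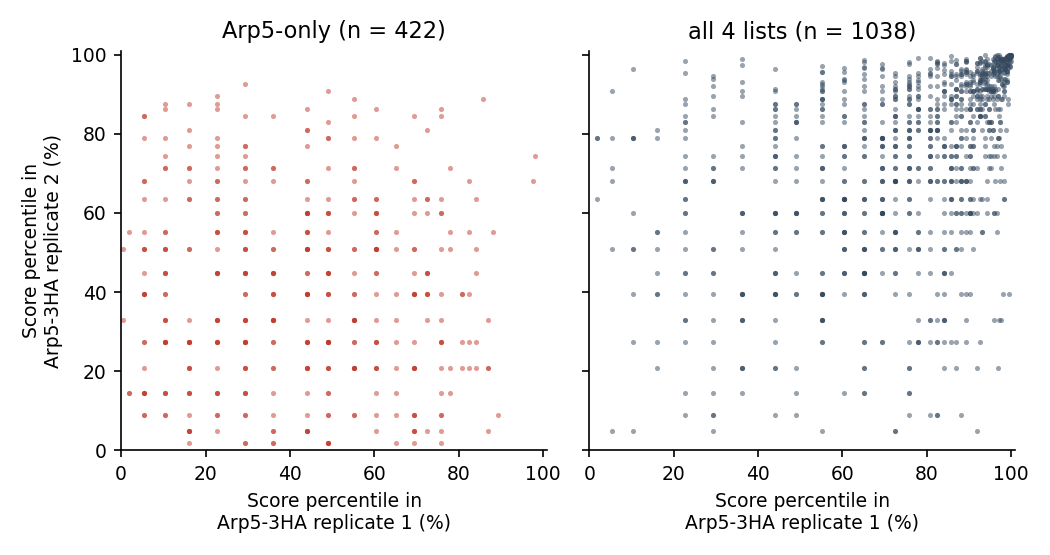
Score percentile of the best peak in Arp5-3HA replicate 1 (horizontal axis, %) and in replicate 2 (vertical axis, %), for the 422 Arp5-only regions (left) and the 1038 regions of all 4 lists (right), 1 point per region. Arp5-only regions spread widely in each list, with medians of 44 in replicate 1 and 39.4 in replicate 2. Of them, 3 are above the 75th percentile in both lists, whereas 470 regions of all 4 lists are above it; points line up because scores are whole numbers.

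The distance to Hap2-GFP varied widely among members. The nearest Hap2-GFP peak lay at a median of 565 bp, with 42 members at 100 bp or less and 196 at 500 bp or less. At the other end, 67 members had no Hap2-GFP peak within 2000 bp and 13 had none within 5000 bp. The farthest were both regions of tor2, which encodes the TORC1 kinase. They lay 15290 and 14370 bp from any Hap2-GFP peak. Just inside the rule were regions over nog1, a GTP-binding ribosome biogenesis factor, whose region abuts a Hap2-GFP peak with 0 bp between them, over pyp1, a protein tyrosine phosphatase, at 20 bp, and over gma12, a Golgi galactosyltransferase, at 20 bp. Just outside it were a region over sts5, in which a Hap2-GFP peak overlaps an Arp5-3HA peak by 10 bp, and 2 regions with an overlap of 20 bp, of which 1 lay over mok11, an alpha-glucan synthase gene, and the other was centred in no coding gene (chromosome I, 4077991 to 4078450).

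Nearly all Arp5-only regions lay inside protein-coding genes. Of the 422, 418 were centred between the annotated ends of a coding gene (99.1%, 95% Wilson interval 97.6 to 99.6, which covers counting error only). The same share was 97.5% (505 of 518) in regions with 1 Hap2-GFP list, 78.9% (819 of 1038) in regions of all 4 lists and 24.2% (181 of 747) in Hap2-only regions, while coding genes take up 76.7% of the 3 chromosomes. The difference from Hap2-only regions was present in single lists. Peaks that met no peak of the other protein were centred in coding genes for 97.8% and 98.3% of those in Arp5-3HA replicates 1 and 2, against 37.8% and 40.3% of those in Hap2-GFP replicates 1 and 2. The gap between the proteins, of 57.5 points or more, was larger than the 0.5 points between the Arp5-3HA replicates and the 2.5 points between the Hap2-GFP replicates. These peaks too were chosen for meeting no peak of the other protein. Over whole lists the shares were 90.7% and 89.6% for Arp5-3HA and 65.0% and 66.1% for Hap2-GFP, a smaller gap. Regions of 1 Arp5-3HA list alone had 97.8%, so the trait is not particular to Arp5-only regions.

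Within genes, members kept to the coding sequence. Coding bases of any gene made up 93.9% of all bases under the 422 regions, and 344 regions consisted of coding bases alone. In the genes that held their centres, 86.6% of the bases under the 418 regions were coding, 12.1% untranslated and 0.59% intronic, against 69.0%, 26.9% and 4.1% over all coding genes. The values over all coding genes are not matched for gene length or for position in the gene. How much of the difference goes with these was not tested. In 46 regions over 50% of the bases fell in untranslated parts of the gene that held the centre, but in 37 of these over 50% were coding bases of another gene that overlaps it. The fourth-ranked member was of this kind. It fell (chromosome III, 983841 to 984140) in an untranslated part of sws2, a gene of 4009 bp for a protein of the small mitochondrial ribosomal subunit, and its codons were those of vid21, named here after its values were seen, which encodes a subunit of the NuA4 histone acetyltransferase.

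Along the gene, Arp5-only regions occupied the middle, as did regions with both Arp5-3HA lists and 1 Hap2-GFP list and regions of 1 Arp5-3HA list alone. With 0% at the annotated start and 100% at the end, their median position was 55.7%, and the central 50% of them lay between 41.0% and 72.6%. Of the 418 centres, 4 lay in the first 10% of the gene (0.957%) and 23 in the last 10% (5.50%). Regions with both Arp5-3HA lists and 1 Hap2-GFP list had a median position of 59.7%, with 1.19% in the first 10% and 4.95% in the last, and regions of 1 Arp5-3HA list alone had a median of 54.6%. Hap2-only regions within genes had 22.7% of their centres in the first 10% and 12.2% in the last, and regions of all 4 lists 2.56% and 9.16%. The regions of all 4 lists were also shifted toward the gene end, with a median position of 64.4% and 71.9% of them past the midpoint, against 60.5% of Arp5-only regions. In bp, the median Arp5-only centre lay 1564 bp from the gene start and 1208 bp from its end, and 7 and 27 centres lay within 300 bp of the start and of the end. The peaks of single lists that met no Hap2-GFP peak had median positions of 55.0% in Arp5-3HA replicate 1 and 54.6% in replicate 2. The difference from the regions of all 4 lists, 64.4%, is larger than that between the replicates. Both replicates' peaks were chosen for meeting no Hap2-GFP peak, so their closeness cannot tell whether the difference goes with that choice. Positions over whole lists are not given here. When only Arp5-3HA peaks at or above the median score of their list were used, the 58 regions left had a median position of 64.3%, close to that 64.4%. Regions of all 4 lists were not remade at that score, so whether the difference is lost under like settings was not tested. With genes taken from start codon to stop codon the medians were 62.6% for Arp5-only regions and 68.2% for regions of all 4 lists.

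**Figure D2:**
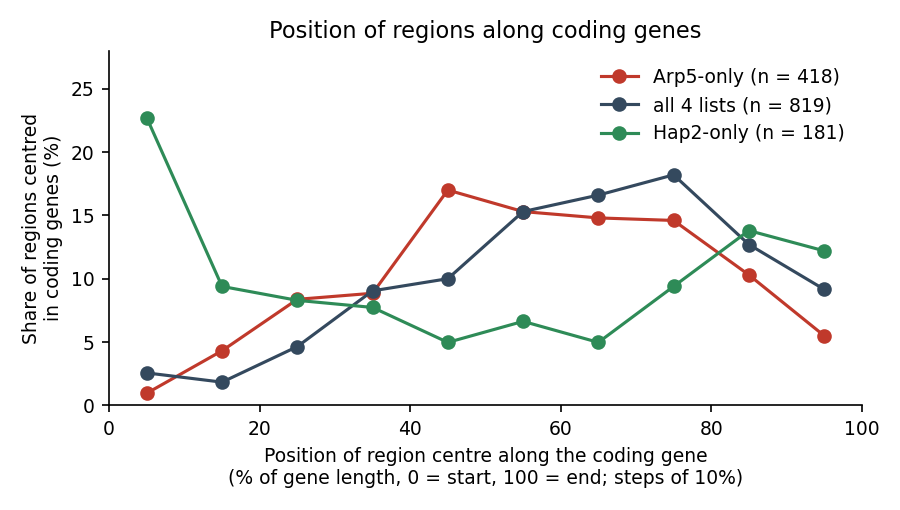
Share of regions (vertical axis, %) by the position of their centre along the coding gene in steps of 10% of its length (horizontal axis, % from start to end), for Arp5-only regions (418), regions of all 4 lists (819) and Hap2-only regions (181) centred in coding genes. Arp5-only regions are fewest in the first step (0.957%) and most frequent in the fifth (17%), where Hap2-only regions have 4.97%.

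The genes under Arp5-only regions were long. Each member's gene had a median length of 2966 bp, with a central 50% from 2119 to 3903 bp, against 1773 bp (1205 to 2546) over all 5113 coding genes. Where several coding genes held a centre (44 members), the longest was taken, which can only raise the lengths of the members' genes. Medians were nearly as high for regions with both Arp5-3HA lists and 1 Hap2-GFP list, at 2723 bp, and for those of 1 Arp5-3HA list alone, at 2793 bp. The genes under regions of all 4 lists had a median of 2208 bp and those under Hap2-only regions 1932 bp. In single lists the median was 2873 bp for Arp5-3HA replicate 1 and 2901 bp for replicate 2, against 2021 and 2132 bp for the 2 Hap2-GFP lists. In all, 370 coding genes held the centre of an Arp5-only region, 7.24% of the 5113, and 726 held the centre of a region of all 4 lists, 14.2%.

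The share of genes with a member climbed with length through every class. It was 0.355% of genes under 1 kb (3 of 846), 4% from 1 to 2 kb, 8.78% from 2 to 3 kb, 17.5% from 3 to 4 kb, 19.9% from 4 to 5 kb and 29.0% of genes of 5 kb and over (42 of 145). A longer gene offers more bases to hold a region, so the density over the gene bodies was also counted. Arp5-only regions numbered 5.17 per Mb of gene body in genes under 1 kb, 26.9 from 1 to 2 kb, 40.5 from 2 to 3 kb and 60.1 from 3 to 4 kb. Above that length the density levelled, at 52.4 per Mb from 4 to 5 kb and 59.1 per Mb in the longest genes. Regions of all 4 lists were densest in the shortest genes, at 157 per Mb in genes under 1 kb and 66.6 per Mb in genes of 5 kb and over. The short genes with a member were rpl2302, which encodes the 60S ribosomal protein L23 and is 763 bp long, rps1701 (898 bp) and ost2 (935 bp), a subunit of oligosaccharyltransferase.

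**Figure D3:**
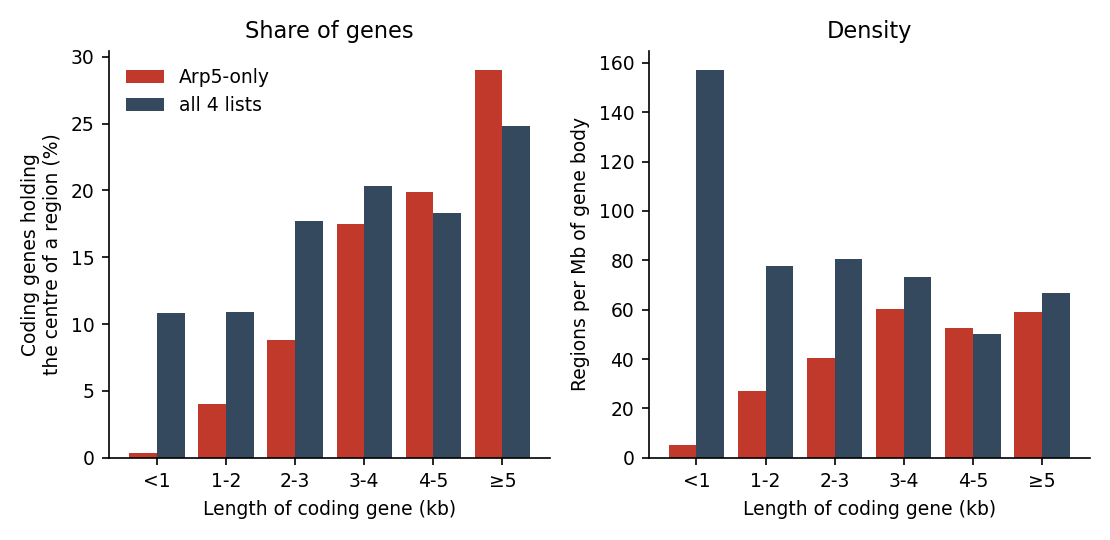
Share of coding genes that hold the centre of a region (left, %) and number of regions per Mb of gene body (right) by gene length in kb, for Arp5-only regions and regions of all 4 lists. The Arp5-only share is 0.355% under 1 kb and 29.0% at 5 kb and over, and their density is 5.17 per Mb under 1 kb and 52.4 to 60.1 per Mb from 3 kb upward.

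The highest-ranked members fell in genes of varied function. The first was in SPAC57A7.05 (chromosome I, 1536561 to 1536980), at the 85.7th percentile in Arp5-3HA replicate 1 and the 88.7th in replicate 2, and its nearest Hap2-GFP peak was 690 bp away. The second lay in nst1 (chromosome I, 4420211 to 4420600; 75.9th and 86.3rd percentiles). The third lay at 84.0% of the length of prp1, which encodes a subunit of the U4/U6 x U5 tri-snRNP of the spliceosome (chromosome II, 2644281 to 2644560; 75.9th and 84.6th). These 3 are the members above the 75th percentile in both lists, and the nearest Hap2-GFP peaks of nst1 and prp1 lay 1080 and 870 bp away.

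The region in pmd1, an ABC transporter gene known for resistance to leptomycin, spanned 1010 bp (chromosome III, 1636601 to 1637610; 72.5th percentile in replicate 1 and 81.0th in replicate 2), and a further member lay downstream in the same gene, at 52.9% of its length. Those in mrpl35, for a mitochondrial ribosomal protein, and bgl2, for a cell wall glucosidase, differed in their surroundings: the nearest Hap2-GFP peak was 6870 bp from the first and 50 bp from the second. The region in erv46, which encodes a protein of COPII vesicles, had percentiles of 97.6 in replicate 1 and 68.1 in replicate 2, and the peaks shared 40 bp. For sws2 the percentiles were 98.0 and 74.5. The peaks of these 2 regions were thus much higher in one list than in the other.

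Near the gene end lay the regions of tho2, a subunit of the THO complex of mRNA export, at 89.4% of a gene of 5227 bp, and of rpb1, the largest subunit of RNA polymerase II, at 95.1% of a gene of 5605 bp. The rpb1 region (chromosome II, 1596291 to 1596650; percentiles of 82.4 and 68.1) had a Hap2-GFP peak 30 bp away. The last of the 12 highest were in sdh1, a succinate dehydrogenase subunit, at 44.5% of the gene, and in rps1701, for the 40S ribosomal protein eS17, at 66.3%. Of these 12 regions, 10 consisted of coding bases of the named gene alone. The exceptions were those of sws2 and rps1701, the second of which had 103 untranslated of 420 bases.

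Some genes held several members. Of the 370 genes, 330 held 1, 34 held 2, 4 held 3 and 2 held 4. One of the last pair was pom1, which encodes the DYRK-family kinase that marks the cell ends in polarity and division size control. Its regions lay at 23.3%, 39.1%, 56.3% and 76.9% of a gene of 3754 bp (chromosome I, 534120 to 537873, minus strand). In gene order their percentiles were 49.1, 29.4, 22.6 and 60.4 in Arp5-3HA replicate 1 and 44.8, 92.6, 27.3 and 4.77 in replicate 2. No region of pom1 was thus high in both lists. The other gene was mam301, at 2211 bp much shorter, with regions at 19.3%, 44.8%, 67.9% and 88.9% of its length. Genes with 3 members were bgs1, the beta-glucan synthase of the primary septum, at 45.2%, 72.5% and 80.7% of 6443 bp; ppk1, a protein kinase gene; srr1; and SPAC3C7.13C, annotated as a glucose-6-phosphate dehydrogenase. In srr1 all 3 regions had over 50% of their bases in untranslated parts, as did 2 of the 3 in SPAC3C7.13C. Such regions may belong to an overlapping gene, since 37 of the 46 members of this kind were mostly coding bases of another gene.

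Among the longest genes with a member, dhc1, the dynein heavy chain, is the third longest coding gene of the annotation (12591 bp). It had a region at 46.5% of its length, 7870 bp from a Hap2-GFP peak. The others were ptr1, a ubiquitin ligase gene (10100 bp), rad3, the ATR checkpoint kinase (9446 bp), and ags1, the cell wall alpha-glucan synthase (8667 bp, with 2 regions). Of the 10 longest coding genes, 3 held a member.

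The gene groups differed in how many members they held, and each count is set against the 7.24% of all coding genes that held the centre of an Arp5-only region. No test was made on these groups, which were chosen with earlier results of these data known, and the lengths of their genes differ. Genes of the machinery that makes ribosomes stood highest among the larger groups, with 16 of 86 (18.6%) at a median gene length of 1728 bp, close to that of all coding genes. At the share of each length class, 5.64 of these 86 would hold one. They included rrp12, at the 75.9th and 63.5th percentiles, utp3 and rrp5, factors of pre-rRNA processing. Of the same 86 genes, 9 (10.5%) held a region of all 4 lists, against 14.2% of all coding genes.

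In several groups regions of all 4 lists were much more frequent than members. Glycolytic and fermentation genes had 1 of 19 with an Arp5-only region, pdc102, a pyruvate decarboxylase gene, but 15 of 19 with a region of all 4 lists. Chaperone genes had 0 of 14 and 11 of 14, and genes of cytoplasmic ribosomal proteins had 2 of 137, rps1701 and rpl2302, and 68 of 137. Translation initiation factors had 2 of 36, tif313 and tif212, against 12 of 36 with regions of all 4 lists. The shares of the length classes would give 0.918 glycolytic genes, 1.02 chaperone genes, 1.12 genes of ribosomal proteins and 2.01 of initiation factors with a member, so these counts were near those of other genes of their length. Fatty acid synthesis genes had 2 of 6, cut6, the acetyl-CoA carboxylase, and fas1, a subunit of the fatty acid synthase, while all 6 held a region of all 4 lists. By length class 1.22 of these 6 would hold a member.

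Groups of long genes had higher shares. Large subunits of the RNA polymerases had 3 of 6, rpb1 and rpb2 of polymerase II and nuc1 of polymerase I, at a median length of 4243 bp, and 4 of the 6 held a region of all 4 lists. Genes of cell wall glucan and chitin synthases had 3 of 11, bgs3, bgs1 and ags1, PIK-related kinases 2 of 6, rad3 and tor2, and motor proteins 3 of 15, dhc1, the kinesin gene klp2 and the myosin gene myp2. For the glucan synthases, the PIK-related kinases and the motor proteins the length classes would give 2.87, 1.74 and 2.56. Their counts were thus near those of other genes of their length. For the polymerase subunits the classes would give 1.3. Nucleoporins had 5 of 30, among them alm1 and nup184, and karyopherins, the carriers of nuclear transport, 4 of 15, among them nmd5 and crm1, where the length classes would give 4.14 and 2.37.

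Protein kinases had 14 of 94 (14.9%), with pck2, a protein kinase C homologue, and ppk8 among the highest, and ubiquitin ligases 8 of 70 (11.4%), among them rad8 and mub1. Membrane transporters other than ABC transporters had 22 of 196 (11.2%), with the sugar transporter gene sut1 and meu22 highest, and ABC transporters 1 of 10, pmd1. Helicases had 5 of 58 (8.62%), with mtr4 of the TRAMP complex and rqh1, the RecQ helicase, among them. By length class 9.94 protein kinases, 7.76 ubiquitin ligases, 16 other transporters, 1.95 ABC transporters and 8.13 helicases would hold a member. The ubiquitin ligases lay near their count, the 5 helicases somewhat below theirs and the 14 protein kinases somewhat above theirs. These offsets are small and were not tested. The helicase share was also close to the 7.24% of all coding genes. Lower shares were found for aminoacyl-tRNA synthetases (2 of 35, vrs1 and trs1), splicing factors (1 of 41, prp1), genes annotated as mitochondrial (2 of 106, sws2 and mrpl35), meiotically upregulated mug genes (2 of 91, mug24 and mug56) and coatomer subunits (0 of 7). For these groups in turn the length classes would give 3.38, 4.03, 3.92, 4.82 and 0.734. Of 16 genes for subunits of Ino80C, 2 held a member, nht1, its HMG box subunit, and rvb1, an AAA ATPase, both low in at least 1 list (8.98th and 1.87th percentile). By length class 0.924 of these 16 would hold one.

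Many genes with a member also carried Hap2-GFP elsewhere. A Hap2-GFP peak of either list overlapped 250 of the 370 genes (67.6%), against 53.2% of all coding genes. Among genes of 2 kb and over the shares were 74.4% of the 281 with a member and 62.1% of the 1838 without. This cut does not level gene length, since the share of genes with a member still climbed above it. It was 8.78% from 2 to 3 kb and 29.0% at 5 kb and over. How much of the difference goes with length was not tested. In a window around the gene start, reaching 500 bp before it and 100 bp into the gene, 37.6% of the genes with a member had a Hap2-GFP peak, against 31.9% of all coding genes. Regions of all 4 lists overlapped 74 of the 370 genes with a member and 1042 of all 5113 coding genes (20.4%).

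The members were spread over the 3 chromosomes, with 223 on chromosome I, 121 on chromosome II and 78 on chromosome III, or 40, 26.7 and 31.8 per Mb. Only 5 lay within 100 kb of a chromosome end. The 4 centred in no coding gene all had a GC content below the lower quartile of the members, 39.2%. The region beside csx1 (chromosome I, 3573041 to 3573320) had the lowest of all, 24.3%, and lay over an annotated noncoding RNA gene 695 bp from that coding gene. The second lay over a noncoding RNA gene 628 bp from mbx2, a transcription factor gene (chromosome II, 3625701 to 3626010, 32.6%). The remaining 2 were near the ends of chromosome III (24901 to 25260, 38.3%, and 2438871 to 2439180, 37.4%) and touched no annotated gene. Noncoding RNA genes antisense to the gene covered the centres of 193 of the 418 members in genes (46.2%), against 40.9% of 3353 other windows of the same lengths tiled over the same genes.

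Arp5-only regions were rich in G and C for their genes. Their median GC content was 41.6%, with a central 50% from 39.2% to 44.0%, against 42.2% for regions with both Arp5-3HA lists and 1 Hap2-GFP list, 40.5% for regions of all 4 lists, 38.4% for Hap2-only regions and 36.1% for the 3 chromosomes. Relative to the whole gene around it, introns and untranslated parts included, the median member was 3.72 percentage points higher, and 364 of 418 were higher than their gene (87.1%). Regions with both Arp5-3HA lists and 1 Hap2-GFP list were close to the members, at 3.39 points and 88.3% above their gene. In regions of all 4 lists centred in genes the difference was 2.05 points and in Hap2-only regions 2.18 points. Regions of all 4 lists are longer and lie in shorter genes, and their gap to the members was not seen within coding sequence, as given below. Peaks of single lists that met no Hap2-GFP peak had differences of 3.08 points in Arp5-3HA replicate 1 and 3.26 in replicate 2. The corresponding peaks of Hap2-GFP replicates 1 and 2 had 2.56 and 3.03 points, so the nearest lists of the 2 proteins were 0.05 points apart, less than the 0.18 and 0.47 points between the replicates of Arp5-3HA and of Hap2-GFP.

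Part of the difference from the whole gene came with the coding bases, which are richer in G and C than untranslated parts and introns (39.6% over all coding genes). In a comparison added after the data were seen, coding bases under 405 members were set against the remaining coding bases of the same gene. The median difference was then 1.83 points, with 296 of 405 members higher. In whole codons against the rest of the same coding sequence, the median difference was 1.93 points in 406 members. It was 1.91 points in 630 regions of all 4 lists and 1.94 points in regions with both Arp5-3HA lists and 1 Hap2-GFP list. Within coding sequence the members were thus not raised above these 2 classes. Windows of a member's length were also tiled over its whole gene, untranslated parts and introns included, so this count is not limited to coding bases. Of the members with such windows, 152 of 409 (37.2%) had a higher GC content than every other window. An even order among the windows would give 15.9%. A lower GC content than every other window was found in 13.

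The extremes were named after their values were seen. The region with the highest GC content lay at 48.7% of the length of deb1, a gene for a DNA-binding transcription factor, and had 55.9% against 43.8% over the gene. Regions in nak1, which encodes a PAK-like kinase, and in oca2, another kinase gene, had 51.4% and 50.4% against 39.0% and 36.6%. The lowest in a coding gene, 29.2% against 36.4%, lay wholly in an untranslated part of sfp1, a transcription factor gene. Among the 12 highest-ranked members the GC content ran from 40% in pmd1 to 49.0% in sws2, and each of the 12 was above its gene.

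**Figure D4:**
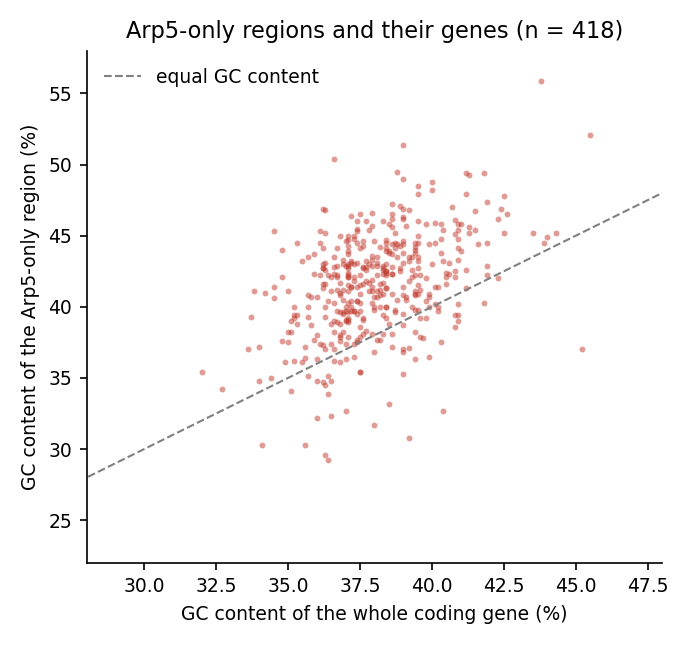
GC content of each Arp5-only region (vertical axis, %) and of the whole coding gene that holds its centre (horizontal axis, %), 1 point per region (418). The dashed line marks equal values; 364 of the points lie above it, with a median difference of 3.72 points.

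The elevation was narrow. Counting only bases inside the gene and following its strand, GC content was 42.6% in the 50 bp just upstream of the centres of Arp5-only regions. It was 38.3% in the bin centred 325 bp upstream and 37.7% in that centred 275 bp downstream. The upstream bin is a local dip, with 39.6% at 225 bp and 39.4% at 625 bp upstream, so the fall was less sharp on that side. Around regions of all 4 lists, which are longer, it was raised further upstream, at 41.5% in the bin 375 bp before the centre, against 39.3% for Arp5-only regions. Around Hap2-only regions in genes it was 43.1% just upstream of the centre, 38.2% in the bin at 325 bp upstream and 36.4% in that at 275 bp downstream.

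**Figure D5:**
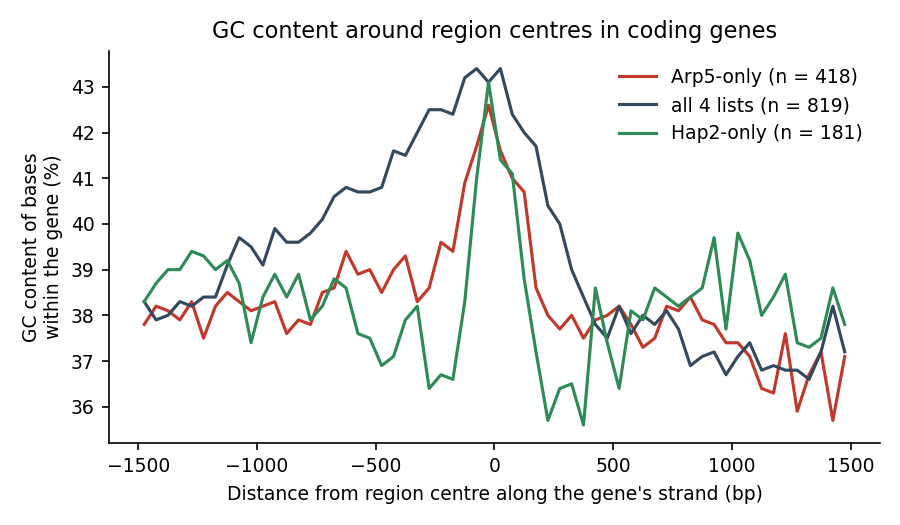
GC content (vertical axis, %) in bins of 50 bp by distance from the region centre along the strand of the gene (horizontal axis, bp, negative upstream), over bases within the coding gene, for Arp5-only regions (418), regions of all 4 lists (819) and Hap2-only regions (181) centred in genes. All 3 curves peak at the centre, Arp5-only regions at 42.6%, and the curve of all 4 lists is the broadest.

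By position in the codon, the difference was larger at the first and second bases than at the third. In 406 members with at least 20 whole codons inside and outside, taken in the gene with most coding bases under the region, GC content exceeded that of the rest of the same coding sequence by a median of 1.85 points at the first base, 2.91 at the second and 0.70 at the third. Members above the rest of their gene numbered 251, 256 and 227 of 406 at these positions. Codons beginning with G or C at both first positions, those in capitals in the sequences printed above, made up a median of 21.9% of codons in the members and 19.6% in the rest of their genes, and were more frequent in 273 of the 406. Regions of all 4 lists showed the same order, with 2.19, 2.57 and 0.77 points. In nst1 such codons were 22.3% of the region and 17.3% of the rest, in erv46 27.5% and 20.3% and in tho2 22.9% and 14.7%, whereas in rps1701 they were 24.8% and 25.9% and in rad8 10.5% and 15.0%.

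The encoded residues differed as well, only in part along the codons in capitals. Alanine made up 7.22% of the 46099 codons in members and 6.37% of the rest, glycine 5.51% and 4.87%, proline 5.57% and 4.87%, arginine 5.34% and 4.84%, and tryptophan 1.21% and 1.04%. Lower in members were lysine, at 5.41% and 6.09%, leucine, at 8.91% and 9.84%, phenylalanine, at 4.05% and 4.40%, and asparagine, at 4.89% and 5.27%. Codons of 1 gene are not independent, and these values are given as a description. In regions of all 4 lists alanine, glycine and proline were again among the most raised, where they reached 1.19, 1.18 and 1.17 times their share in the rest of the genes. In members they reached 1.13, 1.13 and 1.14 times. The most raised residue in members was tryptophan, at 1.16 times, which is not among the residues of the codons in capitals.

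Runs of A and T were somewhat rarer in the members. AAAAAA or TTTTTT, searched on the printed strand and so on both strands for either run, occurred in 156 of the 418 members in genes (37.3%), against 1533 of the 3353 other windows of the same lengths in the same genes (45.7%). These windows include untranslated parts and introns, and the share of the difference that goes with them was not tested.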

How the data were processed

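Peaks had been called by the authors in single ChIP samples, with no pooling. Tools listed in the submitters' processing notes are MACS2 2.1.2, BWA 0.7.17, Trimmomatic 0.36 and deepTools. For thresholds and the genome build, the sources used here give nothing. A deposited peak has coordinates, a summit and a score assigned by the authors, with 0 in the fields for enrichment, p and q. Scores were used as ranks within a list. The lists carry no depth per sample, so its precision is unknown.

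The Arp5-only regions, the gene lists and the alternatives were chosen with earlier results of these data known. Peaks outside chromosomes I to III (1 and 0 in the Arp5-3HA lists, 6 and 8 in the Hap2-GFP lists) were left out. Genes and sequences come from the RefSeq annotation of ASM294v3. In all 4 lists the last peak on chromosome III ends where this reference does. A region belongs to the coding gene that holds its centre, the longest where several do (44 members). Intervals are 95% Wilson intervals and cover counting error only. No set, placement or resampling test was made.

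Genes were named by a rule: those most covered by the 12 highest-ranked members, those with the most members, the 4 longest, 2 to 4 of each of the 23 gene lists under the highest-ranked members, and those at the edge of the rule. Others are said to be named after their values were seen. After the annotation was seen, the search terms of the aminoacyl-tRNA synthetases were widened and 1 kinase and 1 histone demethylase gene were taken off lists whose symbols they share. The alternatives were a larger minimum overlap, a distance to Hap2-GFP peaks, higher score thresholds, each replicate left out, regions away from repeats, the shared stretch of the peaks, summits, start to stop codon as the gene, a fixed window and, added after seeing the data, coding bases alone and lists of 1 replicate number. Merging and gene positions were tested on simulated data. Python 3.11.15, numpy 2.4.6, scipy 1.17.1 and matplotlib 3.10.9 were used.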

Additional observations from a re-analysis of the deposited data

How the results depend on the processing

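The peaks of the lists limit all results: no read depth, input or signal below the authors' threshold enters them, and a value was called stable when it moved by less than 1 SD between the single Arp5-3HA lists, or, for the number of regions, when it stayed within 1.5 times. The number of Arp5-only regions depended most on the settings. It was 226 without regions within 500 bp of a Hap2-GFP peak, 58 with Arp5-3HA peaks at or above their list's median score, 884 with Hap2-GFP peaks at or above theirs, and 655 to 1718 with 1 replicate left out: 1718 without Arp5-3HA replicate 2, 1609 without Arp5-3HA replicate 1, 725 without Hap2-GFP replicate 2 and 655 without Hap2-GFP replicate 1. The descriptive values moved less in size, though most of their shifts were not below 1 SD between the single Arp5-3HA lists. The share centred in coding genes was 100%, 98.3% and 97.9% under the first 3 of these settings, 97.8 to 98.8% with 1 replicate left out, 99.5% away from repeats and chromosome ends and 96.0% with genes taken from start to stop codon. The median position was 56.3%, 64.3% and 59.2% under those 3 settings, 54.6 to 57.5% with 1 replicate left out and 62.6% from start to stop codon. The median gene length was 2927, 3166 and 2873 bp, 2867 to 2914 bp with 1 replicate left out, 3033 bp with peaks merged from 50 bp of overlap and 2133 bp from start to stop codon, since untranslated parts are then not counted. The median GC content was 41.4%, 42.2% and 41.9%, 41.0 to 42.1% with 1 replicate left out, 41.6% with the larger overlap, 42.8% in the stretch shared by both Arp5-3HA peaks and 42.0% in 200 bp at the centre. The median GC difference from the gene was 4.41 and 3.39 points with Arp5-3HA or Hap2-GFP peaks at or above theirs, 3.08 to 3.61 with 1 replicate left out, 3.51 with the larger overlap, 4.81 in the shared stretch and 1.83 for coding bases alone, an alternative added after seeing the data. Pairing the lists by replicate number, also added after seeing the data, gave 2207 regions with Arp5-3HA peaks alone for lists numbered 1 and 1985 for lists numbered 2, with 97.7% and 97.8% in coding genes, median positions of 55.9% and 55.8%, gene lengths of 2806 and 2834 bp, GC contents of 41.2% in each and GC differences of 3.33 and 3.30 points. Apart from the setting with coding bases alone, whose construction leaves out untranslated and intronic bases, the cause of these shifts was not tested. The remaining alternatives left each value within these limits, and no setting turned the sign of the GC difference. By the rule for a stable value, the number of regions moved in 9 of 11 alternatives. The share in coding genes moved in 11 of 14 and the median position in 8 of 14. Gene length moved in 11 of 13, GC content in 12 of 13 and the GC difference in 10 of 14.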
